A study of Homo sapiens with 2 samples.

Results

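The genes described here are 52 regulators of the cell cycle and of DNA replication, taken as a given list and read in Huh-7 cells, a human hepatoma line that divides in culture. Of the 52, 51 had at least 1 probe set annotated to that gene alone, out of 19775 genes with such a probe set in the whole table. CDKN2C had none in the annotation used and was not analysed. The study hybridised 1 Affymetrix array per condition. The treated culture was incubated for 24 hours and then exposed for 6 hours to interferon-alpha 2b, a recombinant human protein, at 100 U/mL, while the untreated culture received fresh medium without it. Per the labels both were grown in the same serum-supplemented medium, and no genetic change or other agent is named for either. With 1 array per condition there is no replicate check and no p-value, the number of arrays limits the precision, and every difference below is a difference between these 2 arrays.

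A dividing cell loads the MCM helicase onto replication origins in G1 phase, fires those origins in S phase, and separates the copied chromosomes in mitosis. Cyclins switch on cyclin-dependent kinases (CDKs) at each step, E2F factors drive transcription of the replication genes once the pocket proteins release them, and CDKN proteins hold the kinases back. Type I interferons are best known for inducing antiviral genes and are also known to slow the growth of many cell types. The harvest time of the untreated culture and the share of cells in each phase were not stated in those labels. In such bulk RNA, fewer cells in a phase and less RNA per cell cannot be told apart.

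No cell cycle gene differed by 1.5-fold between the arrays. Intensities below a floor of 48.46, the median of all values of both arrays, were raised to it, and a gene was counted if at least 1 array was above the floor. A ratio of 2-fold or more with interferon was found in 0 of the 50 counted cell cycle genes, against 0.430% of all 13269 counted genes, and a value 2-fold or more lower in 0 of them, against 0% of all. At 1.5-fold the counts were also 0 in each direction, against 0.754% of all genes higher and 0.0829% lower. Log2 ratios of interferon over untreated ran from -0.30 for CDT1 to 0.31 for CDKN2B, each just past an end of the central 95% of all 12742 genes that exceeded the floor on both arrays (-0.29 to 0.30). The same arrays showed ISG15, a ubiquitin-like interferon-stimulated protein, at intensities of 351.2 untreated and 8332 with interferon, and IRF9, the DNA-binding subunit of the interferon-activated factor, at 106.7 and 2143.

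The cells' identity was read from marker genes. All 7 hepatocyte and hepatoma markers with a probe set (ALB, AFP, APOA1, APOB, APOH, TTR and SERPINA1) had untreated intensities from 2999.9 to 12212. Of 3 leukocyte markers, PTPRC and CD3E did not exceed the floor and LYZ was at 2064 and 2271. The floor was exceeded on both arrays by 2 of 4 endothelial and by 3 of 4 stellate and fibroblast markers. The part of other cells in the cell cycle values was not tested.

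Because log2 ratios drifted with brightness, each member was also set against the 200 genes nearest to it in mean log2 intensity. Over 10 equal groups of genes ordered by brightness, the median ratio was -0.04 in the dimmest group and 0.14 in the brightest, which held 15 of the 44 members other than CDKN genes. Among those 44, which were above the floor on both arrays, 31 had a ratio below the median of their 200 genes of like brightness, or 70.5%, where 49.7% of all genes did. The median difference was small, at -0.05 on the log2 scale, and it ran from -0.05 to -0.04 over the alternatives of floor, probe set and neighbours. Scaling moves genes of like brightness together, so it could hardly alter this difference and is no check of it. The count ran from 29 to 32 over the alternatives that kept 43 to 45 of these members, and it was 22 of 34 when probe sets with the suffix _x_at or _s_at were left out. Raw log2 ratios below 0 were found in 14 of the 44 (all genes, 38.0%). Their median raw ratio was 0.06 with the deposited scaling (all genes, 0.04). It was -0.06 after quantile scaling (all genes, -0.02) and -0.05 after lowess scaling (all genes, -0.01). After centring on the hybridisation controls it was -0.36 (all genes, -0.39), so scaling turned the sign for all genes as well.

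**Figure D1:**
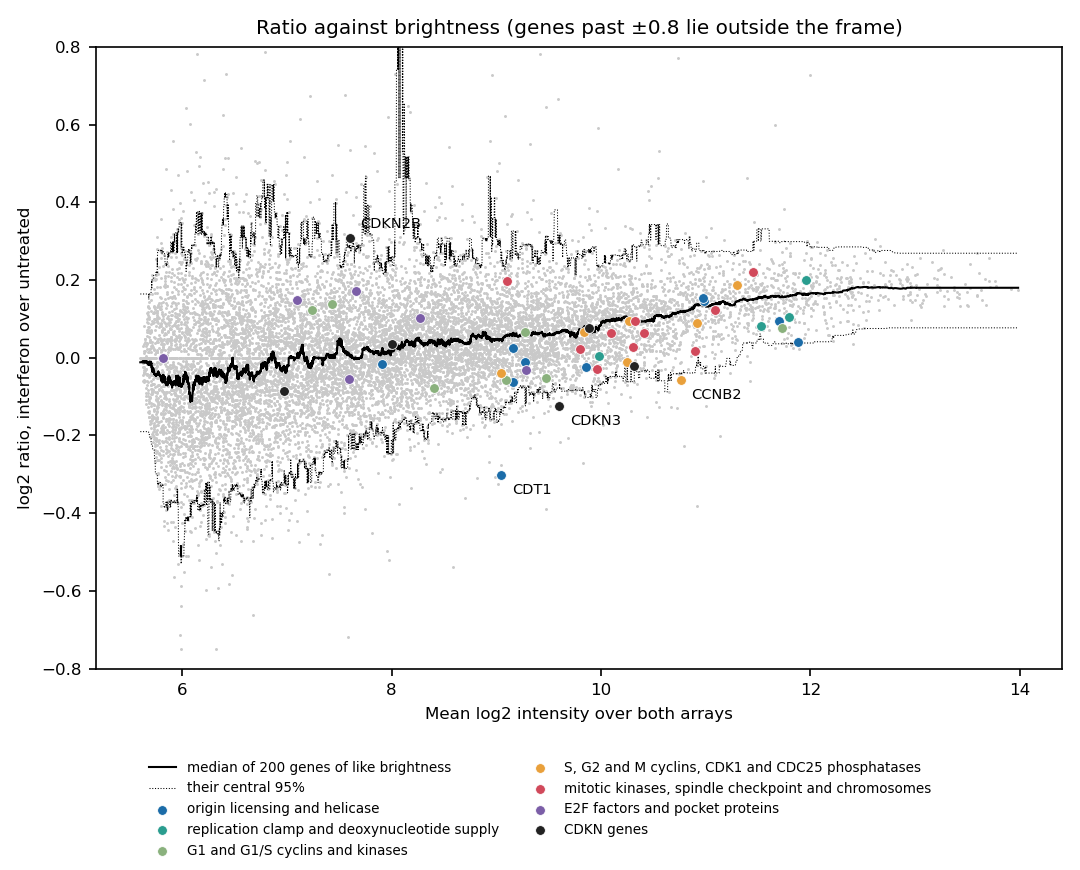
The log2 ratio of interferon over untreated (y axis) is plotted against mean log2 intensity over both arrays (x axis) for genes that exceeded the floor on both arrays, in grey, with 50 cell cycle genes coloured by role. The solid line is the median of the 200 genes of like brightness and the dotted lines bound their central 95%; 31 of the 44 members other than CDKN genes lie below the solid line, and CDT1, CCNB2, CDKN3 and CDKN2B lie outside the dotted lines.

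Outside the central 95% of their genes of like brightness were 4 of the 50 counted members, 3 on the low side (all genes, 2.86%) and 1 on the high side (all genes, 2.97%). CDT1, the factor that loads the MCM helicase onto origins, had intensities of 588.2 untreated and 477.1 with interferon, or 1.23-fold lower. CCNB2, a mitotic B-type cyclin, had 1775 and 1706, and CDKN3, a phosphatase that removes the activating phosphate from CDKs, had 812.2 and 745.3. CDKN2B, which encodes the CDK4 and CDK6 inhibitor p15, had 174.4 and 215.9, or 1.24-fold higher. Differences from genes of like brightness were -0.35 for CDT1, -0.18 for CCNB2, -0.19 for CDKN3 and 0.30 for CDKN2B. Over the alternatives these ran from -0.36 to -0.23, from -0.18 to -0.17, from -0.20 to -0.15 and from 0.24 to 0.30. Scaling is again no check, though under the scalings the difference of CDKN3 ran from -0.19 to -0.15. Nor is the choice of probe set a check for CCNB2, with only 1 above the floor on both arrays.

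The promoters of these 4 genes are shown because they are the members that stood furthest from genes of like brightness, and that of ISG15 is shown beside them as a gene that differed strongly between the arrays. Sequences are from RefSeq on GRCh38.p14, 5′ to 3′ on the gene's strand, and each ends 1 base before the annotated start. The stretch is 250 bases long for CDKN3 and 150 for each other gene. Capitals mark any match, on either strand, to the motifs searched. These were the E2F letters TTTGGCGC, TTTCCCGC and TTTGGCGG, the CHR element TTTGAA of mitotic genes, the NF-Y box CCAAT, and the core of the interferon-stimulated response element, which is GAAA, any 2 bases and GAAA again.
CDT1, chr16:88803639-88803788, plus strand: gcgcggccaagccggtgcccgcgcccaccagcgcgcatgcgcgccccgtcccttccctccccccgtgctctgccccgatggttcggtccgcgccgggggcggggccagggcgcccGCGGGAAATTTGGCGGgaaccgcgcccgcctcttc
CCNB2, chr15:59104996-59105145, plus strand: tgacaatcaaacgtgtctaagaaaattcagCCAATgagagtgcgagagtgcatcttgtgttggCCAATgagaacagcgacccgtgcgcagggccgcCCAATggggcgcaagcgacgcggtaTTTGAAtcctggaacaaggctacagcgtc
CDKN3, chr14:54396757-54397006, plus strand: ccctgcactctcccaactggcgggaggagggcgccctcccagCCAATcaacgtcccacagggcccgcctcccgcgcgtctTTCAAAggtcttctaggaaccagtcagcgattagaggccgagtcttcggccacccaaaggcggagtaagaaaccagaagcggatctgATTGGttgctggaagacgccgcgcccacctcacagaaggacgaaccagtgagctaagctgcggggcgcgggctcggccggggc
CDKN2B, chr9:22009306-22009455, minus strand: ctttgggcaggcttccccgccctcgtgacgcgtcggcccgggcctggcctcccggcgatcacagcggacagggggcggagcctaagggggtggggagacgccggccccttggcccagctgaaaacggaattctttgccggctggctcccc
ISG15, chr1:1013347-1013496, plus strand: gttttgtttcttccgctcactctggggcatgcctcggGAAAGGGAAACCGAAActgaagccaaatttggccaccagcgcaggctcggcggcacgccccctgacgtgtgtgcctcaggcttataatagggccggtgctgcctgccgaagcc

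The CDT1 stretch holds 2 adjoining E2F matches, on opposite strands, that begin 35 and 27 bases before the start. That of CCNB2 holds 3 NF-Y boxes, at 120, 87 and 54 bases before the start, and a CHR element at 29. CDKN3, shown over 250 bases, has NF-Y boxes at 208 and 83 and a CHR element at 170, and only the box at 83 lies in its last 150 bases. The CDKN2B stretch of 150 bases holds none of these letters. ISG15 has 2 overlapping matches to the response element core, beginning 113 and 107 bases before its start. A match is a description of the letters and not evidence of binding.

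Across the list, promoter windows of 300 bases (250 before the start and 50 from it) were matched for 43 of the 52 members, in 64 windows because some genes have several starts. Windows for AURKA, BIRC5, CCND1, CCND2, CCNE2, CDK2, CDKN1C, MCM4 and MCM5 were not used here. E2F letters were found in 20.3% of member windows and in 2.89% of all 35116 windows. They occurred in 6 of 8 licensing genes (CDC6, CDT1, GINS2, MCM3, MCM6 and MCM7) and in 0 of 8 mitotic kinase, checkpoint and chromosome genes. The CHR element was in 21.9% of member windows and 15.2% of all. It occurred in 6 of those 8 mitotic genes (BUB1B, CDC20, MAD2L1, MKI67, PLK1 and TOP2A), or 66.7% of their windows. It was in 0 of the 8 licensing genes, and in 0 of 7 windows each of the clamp and deoxynucleotide group and the G1 group. The NF-Y box was in 60.9% of member windows and 34.6% of all. The response element core was in 0 of 64 member windows, 3.57% of all windows and 4 of 6 windows of ISG15, IFIT1, MX1 and IRF9. These letters may lie outside the window, so their absence draws nothing about interferon's factor.

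Brightness was high for most members on both arrays. Among the 50 counted members, 26 had an untreated intensity above the 90th percentile of all genes (887.5) and 39 above the 75th percentile (339.4). A probe set's intensity depends on its probes as well as on its transcript, so the order of intensities below describes probe sets and does not rank transcripts. MCM7 (3723), TYMS (3705), RRM2 (3427.5), CDK4 (3309) and MCM2 (3214) were the brightest untreated. CCND2 did not reach the floor, at 37.6 and 34.7, nor did its other 3 probe sets. RBL1 was nearest above the floor, with the same value of 56.3 on both arrays.

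**Figure D2:**
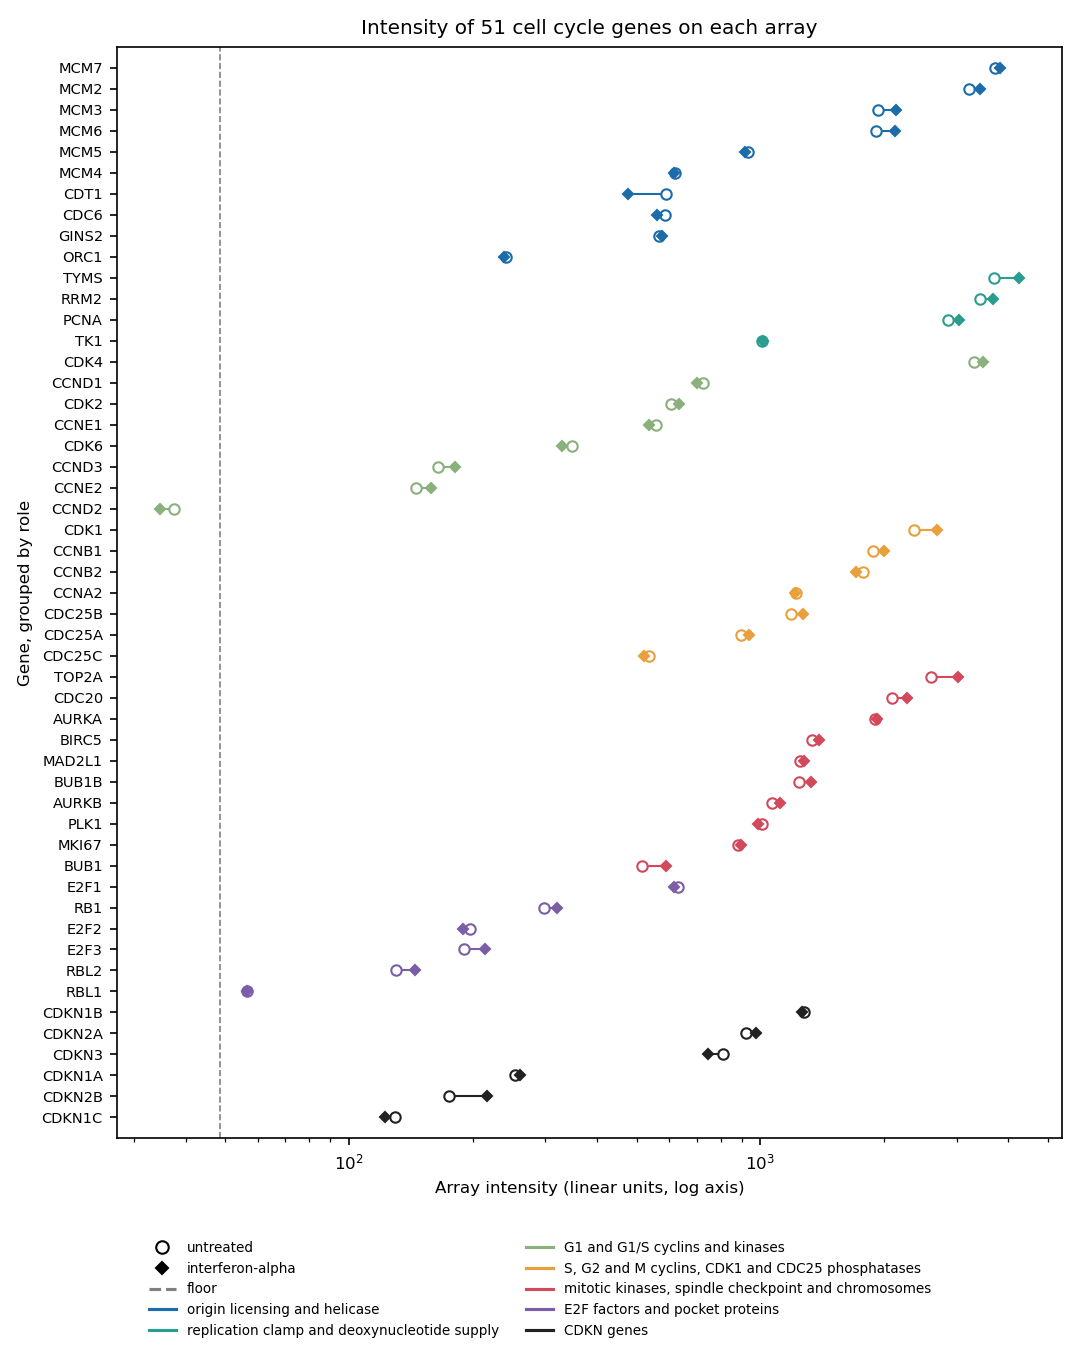
Array intensity (x axis, linear units on a log axis) of the 51 genes with a probe set, grouped by role (y axis); open circles are the untreated array, filled diamonds the interferon array, and the dashed line is the floor of 48.46. The circle and diamond of each gene lie close together, CDT1 and CDKN2B are the furthest apart in ratio, and only CCND2 is below the floor.

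Genes that license origins lay below genes of like brightness in 8 of 10 cases (all genes, 49.7%), with a median difference of -0.07. This count, like those of the other role groups below, comes from few genes and is no result about the group. MCM4 and MCM7 had probe sets on both sides of their genes of like brightness. ORC1, the origin recognition subunit that recruits CDC6, had 241.2 and 238.5, and CDC6, the loader that works with CDT1, had 586.2 and 561.5. The 6 subunits of the MCM2 to MCM7 helicase ring had log2 ratios from -0.02 to 0.15. MCM2 had 3214 and 3430, MCM3 1927 and 2132, MCM4 619.7 and 615.4, MCM5 934.1 and 918.8, MCM6 1908 and 2121, and MCM7 3723 and 3831. MCM3 and MCM6, with ratios of 0.15 each, were the 2 licensing genes above their genes of like brightness, by 0.01 and 0.02. MCM7 was below by -0.13 and MCM5 by -0.10, both inside the central 95%. GINS2, a subunit of the complex that activates the loaded helicase, had 566.8 and 577.2.

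The clamp and the enzymes of deoxynucleotide supply were among the brightest. All 4 had log2 ratios above 0 with the deposited scaling, where their genes of like brightness had a median of 0.16. All 4 were below 0 when the hybridisation controls set the scale, which subtracts 0.43 from every ratio. Neither sign is thus particular to these genes. PCNA, the sliding clamp of DNA polymerases, had 2865 and 3034. RRM2, the regulated subunit of ribonucleotide reductase, had 3427.5 and 3688. TYMS, which makes thymidylate, had 3705 and 4258, a log2 ratio of 0.20 and the only positive difference of the group (0.04). Its other bright probe set, at 1996 and 2144, had a difference of -0.03, and over the alternatives that of TYMS ran from -0.04 to 0.04. TK1, the thymidine salvage kinase, was nearly level at 1011 and 1014, which is -0.08 against genes of like brightness.

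Cyclins and kinases of G1 and of the step into S phase were split. CCND1, cyclin D1, had 725.8 and 700.6, CDK6, one of its kinase partners, 348.6 and 330.2, and CCNE1, cyclin E1, 556.4 and 535.2. These 3 lay below genes of like brightness by -0.11, -0.12 and -0.11, and CDK4, the other partner of D cyclins, by -0.08 (3309 and 3488). CCND3, cyclin D3, had 164.3 and 181.0 and CCNE2, cyclin E2, 145.2 and 158.0, each 0.14 above genes of like brightness. The other probe set of CCNE2, at 110.0 and 106.5, had a ratio of -0.05 and a difference of -0.03. CDK2, the partner of cyclin E, had 606.1 and 634.7, a difference of 0.01. On the probe sets used, all 7 counted genes of the group lay inside the central 95%. The other probe set of CCND1, at 626.4 and 592.6, however, lay just below it (ratio -0.08). A probe set of CDK6 near the floor, at 53.1 and 68.9, lay above it (ratio 0.38).

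Cyclins A and B, CDK1 and the CDC25 phosphatases lay below genes of like brightness in 6 of 7 cases (all genes, 49.7%), with a median difference of -0.05. CCNA2, cyclin A2 of S phase and G2, had 1221 and 1212, or -0.12 against genes of like brightness. CCNB1 had 1877 and 1998, a difference of -0.05. With the deposited scaling the B cyclins CCNB1 and CCNB2 thus had raw ratios of opposite sign (0.09 and -0.06). Both were below 0 after quantile scaling (-0.05 and -0.19) and after lowess scaling (-0.03 and -0.18). CDK1, the kinase that drives mitosis with both B cyclins, was the only gene of the group above genes of like brightness, with 2367 and 2693 and a difference of 0.04. Its other 2 probe sets above the floor had log2 ratios of 0.02 and 0.005, against 0.19 for the one used. CDC25A, CDC25B and CDC25C, which activate CDKs by removing inhibitory phosphates, had 895.8 and 938.5, 1189 and 1271, and 536.3 and 521.9, with differences of -0.01, -0.004 and -0.09.

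Mitotic kinases, spindle checkpoint genes and chromosome proteins lay below genes of like brightness in 8 of 10 cases (all genes, 49.7%). AURKA and PLK1, kinases of centrosome maturation and spindle assembly, had 1896 and 1920, and 1007 and 987.9, with differences of -0.12 and -0.10. AURKB, the kinase of the chromosomal passenger complex, had 1069 and 1118, and BIRC5, survivin, its partner in that complex, 1332 and 1391, with differences of -0.03 each. A dimmer probe set of AURKB, at 132.3 and 157.3, had a difference of 0.25. The other 3 probe sets of BIRC5 had differences of -0.003, -0.10 and, at 90.3 and 101.0, 0.20. CDC20, the activator of the anaphase-promoting complex, had 2086 and 2272 (-0.02). The checkpoint proteins that restrain it, MAD2L1 and BUB1B, had 1252 and 1275.5, and 1243 and 1327 (-0.07 and -0.002). MKI67, the chromosome coat protein used as a proliferation marker, had 883.6 and 896.8 (-0.05).

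The 2 mitotic genes above genes of like brightness were BUB1 and TOP2A. BUB1, a kinetochore checkpoint kinase, had 514.8 and 590.8, a difference of 0.14, and its other probe set above the floor had nearly the same log2 ratio (0.20 and 0.20). TOP2A, the topoisomerase that untangles sister chromosomes, had 2596 and 3028 and the highest raw log2 ratio of the members other than CDKN genes, 0.22, yet a difference of only 0.07 because genes as bright as it had a median of 0.15. Its other probe set above the floor, at 1381 and 1471, had a ratio of 0.09 and a difference of -0.007, so that TOP2A lay above on the probe set used only.

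E2F factors and pocket proteins were dimmer, with a median untreated intensity of 193.3. With 2 of 6 below genes of like brightness, against 49.7% of all genes, the count is no result about so small a group. E2F1, an activator of replication genes, had 628.9 and 615.9 (-0.09) and E2F2 196.6 and 189.1 (-0.06), whereas E2F3 had 190.0 and 214.1 (0.17). The other probe set of E2F3, however, had a log2 ratio of -0.06, against 0.17 for the one used, and a difference of -0.07 from genes of like brightness. The pocket proteins, which bind E2F and repress its targets, were 0.06 above for RB1 (298.2 and 320.1), 0.05 for RBL1, which had the same value on both arrays, and 0.15 for RBL2 (130.1 and 144.3). RB1's other probe set had a ratio of -0.14 and a difference of -0.11, and both probe sets of RBL2 were at 0.14 to 0.15. All 6 genes lay inside the central 95%.

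The CDKN genes, set apart as inhibitors, had a median log2 ratio of 0.006 over 6 counted genes (all genes, 0.04). Their median difference from genes of like brightness was -0.03, and 4 of the 6 lay below (all genes, 49.7%). CDKN1A, the p53 target p21, had 253.6 and 259.7, a difference of 0.01. CDKN1B, p27, which binds cyclin E and cyclin A kinases, had 1280 and 1261 (-0.12), and CDKN1C, p57, had 129.6 and 122.1 (-0.06). The direction for CDKN1C turned with the probe set, since another had 109.3 and 114.8 (0.09) and the third above the floor 110.8 and 103.4 (-0.07), and one without the _x_at suffix had 47.7, below the floor, and 53.1. CDKN2A, whose locus encodes p16 and ARF, had 922.9 and 973.6, at the median of genes of like brightness. CDKN2B and CDKN3, described above, were the only 2 outside the central 95%, in opposite directions. CDKN3 acts on CDKs as a phosphatase rather than as a bound inhibitor.

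**Figure D3:**
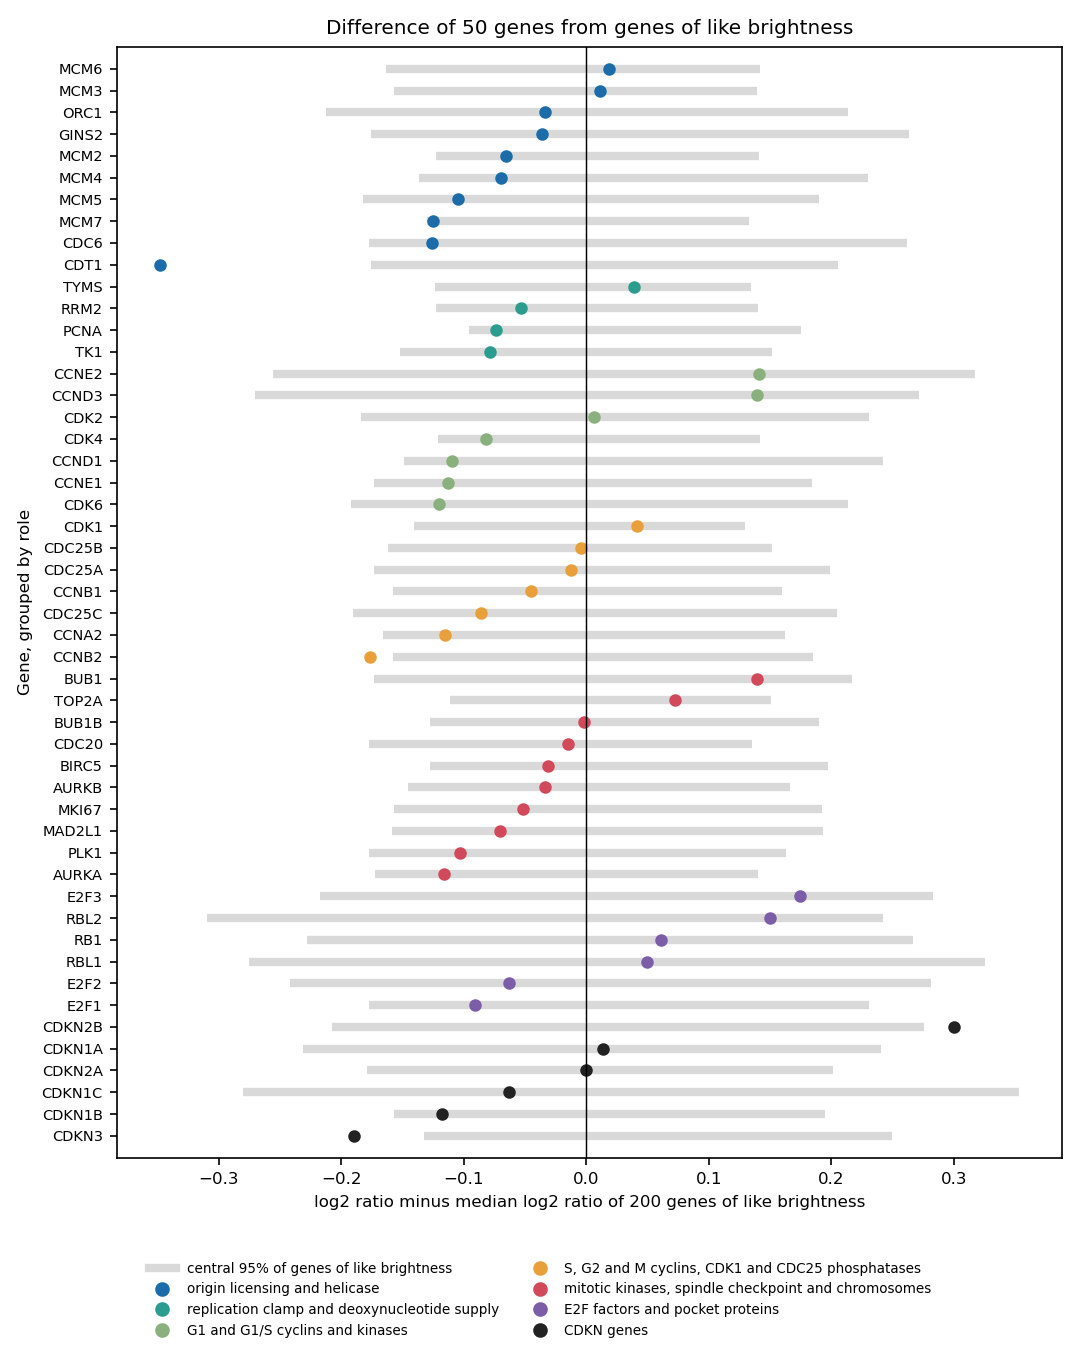
For the 50 counted genes, grouped by role (y axis), points give the log2 ratio minus the median log2 ratio of the 200 genes of like brightness (x axis), and grey bars span the central 95% of those genes around their median. Points lie left of 0 for 8 of 10 licensing genes and 8 of 10 mitotic genes, on the probe sets used (all genes, 49.7%). CDT1, CCNB2 and CDKN3 lie left of their bars and CDKN2B right of its bar.

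Several probe sets of a gene gave a view of the spread within an array, which is not a replicate error. The 51 genes had 126 probe sets, of which 101 were above the floor on both arrays, with log2 ratios from -0.30 to 0.38. In the 34 genes with several of them the median range between probe sets was 0.12 (all 5912 such genes, 0.14). The difference from genes of like brightness was smaller than that range in 35 of the 50 counted members. In 15 of the 34 genes the probe sets had ratios on both sides of 0, but none lay on the other side of 0 from the one used by 0.5 or more. In 17 of the 34 the probe sets lay on both sides of their genes of like brightness: AURKB, BIRC5, CCNA2, CCNB1, CCNE2, CDC25A, CDC25C, CDK1, CDK6, CDKN1C, E2F3, MCM4, MCM7, MKI67, RB1, TOP2A and TYMS. For these genes the sign of the difference depends on the probe set. Of the 51 probe sets above the floor that were not the ones used, 33 lay below genes of like brightness, with a median difference of -0.03. The same share over all such probe sets was not computed. Nor was it computed over all genes for the counts of 35 of 50, 15 of 34 and 17 of 34. None of these counts thus has a background.

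The lowest and highest members differed in how far their probe sets matched. CDT1's other probe set had intensities of 470.9 and 448.3, a log2 ratio of -0.07 against -0.30 for the one used, and it lay inside the central 95%. The probe set used for CDT1 ends in _x_at, a suffix Affymetrix gives to sets with probes that can match other transcripts. Both probe sets of CDKN3 lay below the central 95%, with ratios of -0.12 and -0.08, and both of CDKN2B were above 0, with 0.31 and 0.18, the second inside the central 95%. CCNB2 had only 1 probe set above the floor on both arrays. MCM4 had 1 low probe set, with 599.1 and 489.6 (-0.29), while its other 4 ran from -0.02 to 0.07. MKI67 had 1 of 4 below the central 95% (-0.18). In all, 7 of the 101 probe sets lay below the central 95%, in CCNB2, CCND1, CDKN3 (both), CDT1, MCM4 and MKI67, and 2 lay above it, in CDK6 and CDKN2B. The share of all probe sets outside such bounds was not computed, so these counts have no background. CDK6 held the widest range, 0.47, owing to a probe set near the floor at 53.1 and 68.9 (0.38).

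**Figure D4:**
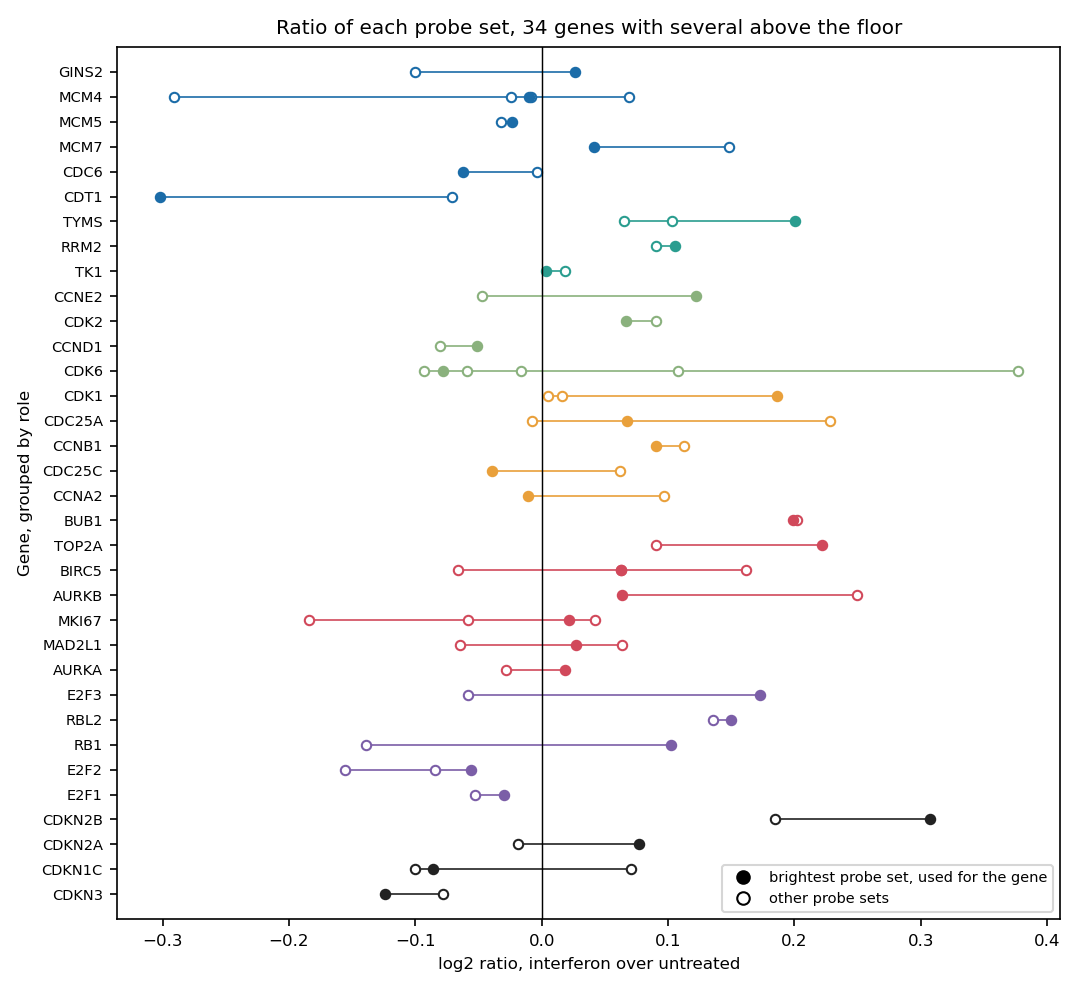
Log2 ratio of interferon over untreated (x axis) for each probe set above the floor on both arrays, in the 34 genes with several (y axis, grouped by role); filled points are the brightest probe set, used for the gene, and lines join the lowest and highest. In 15 of the 34 genes the points lie on both sides of 0 (share over all genes not computed), and CDK6 has the widest range (0.47).

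Other genes of the same machinery, taken from 3 lists of 100 genes in all, showed no gene at least 1.5-fold changed among the 97 counted. Of all counted genes, 0.754% were that much higher and 0.0829% that much lower, so this count is no result about the lists. Of 34 other mitotic genes, 24 lay below genes of like brightness (70.6%, with 49.7% of all genes), with a median difference of -0.06. Their lowest member was the condensin subunit NCAPD2 (516.1 and 473.4, difference -0.17) and their highest the kinetochore gene NUF2 (366.0 and 417.8, 0.15). Of 34 other replication genes 21 lay below, with a median of -0.01, from the primase subunit PRIM2 (188.3 and 169.3, -0.18) to the origin recognition subunit ORC6 (498.0 and 573.8, 0.16). Of 29 other regulators only 7 lay below, with a median of 0.05. In that list MYC, a growth-promoting transcription factor, was above the central 95% with 697.2 and 871.2 (difference 0.26). The repressor-type factors E2F4 (530.8 and 475.7, -0.21) and E2F8 (372.8 and 332.5, -0.20) were below it. Over the 97 genes, 2 were below the central 95% (all genes, 2.86%) and 1 above it (all genes, 2.97%). These counts are no result about the lists. A second probe set of E2F4 had a log2 ratio of 0.13, against -0.16 for the one used.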

How the data were processed

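Expression was measured in 1 untreated and 1 interferon-alpha-treated culture of Huh-7 cells. The authors deposited linear intensities, a single value for each probe set on each array. GCOS, Affymetrix's software, is named in the submitters' processing notes, while the version, background correction, probe summary and scaling used by the authors are not given in the sources. Names came from GEO's platform annotation, and 41037 of the 41091 probe sets with 1 gene had their symbols updated through the gene ID. Those with more than 1 gene (1801) or without a name (11721) were left out.

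A floor at the 50th percentile was applied before log2. A gene was represented by its brightest probe set, by mean log2 intensity. The named genes are all members, and, of each of the 3 lists of other pathway genes (not of the marker lists), genes past 1.5-fold or outside the central 95% of the 200 genes nearest in brightness, otherwise the highest and the lowest. The members and lists were chosen with earlier results of these data known. The procedure, in Python 3.11.15, was tested on simulated data. Alternatives were the floor, pseudocounts of 1 and 50, scaling, choice of probe set, and choice of neighbours. CDKN2C, without a probe set of its own here, is not reported.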

Additional observations from a re-analysis of the deposited data

How the results depend on the processing

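With 1 array per condition, nothing could be left out. No paired analysis was possible because each group has 1 sample. The count of members past 2-fold was 0 under every alternative run. Centring on the hybridisation controls subtracts a constant (0.43) from the log2 ratios, and it moved the median of all genes from 0.04 to -0.39. The median of the members other than CDKN genes moved from 0.06 to -0.36 and that of the CDKN genes from 0.006 to -0.42. The differences from genes of like brightness, which a constant alters only through the genes that pass the floor, were -0.05 and -0.03. Under that centring CDT1 alone passed 1.5-fold (log2 -0.73), on its _x_at probe set. The share of all genes past 1.5-fold was not computed under it, so this is no result about CDT1. Quantile and lowess scaling turned both medians below 0 (-0.06 and -0.06, and -0.05 and -0.05), and that of all genes too (-0.02 and -0.01). The median of the CDKN genes was -0.02 when probe sets with the suffix _x_at or _s_at were left out. All other values of these medians moved by less than 0.13, the robust SD of log2 ratios over genes. Of the single-gene ratios, 76 moved by more than that, 50 of them under the hybridisation controls, 14 under quantile and 8 under lowess scaling, and 414 did not. Over all alternatives, 12 members had a difference from genes of like brightness that changed sign (MCM3, TYMS, CCNB1, CDK1, CDC25A, CDC25B, AURKB, BUB1B, CDC20, TOP2A, RB1 and CDKN2A). CCNB2 and CDKN3 lay below the central 95% of genes of like brightness under every alternative. CDT1 did so under every alternative except the removal of _x_at and _s_at probe sets, which left it without a value, and CDKN2B lay above under every alternative except the median over probe sets. Scaling is no check of these places, nor is the choice of probe set for CCNB2, which had only 1 above the floor on both arrays. Without those suffixes, genes read only by such probe sets had no value. The depth of an array cannot be stated. Precision is limited by the number of arrays, and CCND2, below the floor, has no measured ratio.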

Other observations

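Some deposited values sat on a shared grid. On both arrays, 2135 probe sets had values that were whole multiples of 0.5 above a common offset, within 0.001. All 2135 lay above the floor, where they made up 8.05% of 26507 probe sets. Taken 1 array at a time, 2398 untreated and 2400 interferon values of 54613 were on the grid. Evenly spread values would put 0.4% of 1 array's values this close to such a grid. The share for both arrays at once was not computed. Among the cell cycle genes 12 probe sets were on the grid, including those used for CDK1 and BUB1. Values identical on both arrays, such as that of RBL1, occurred in 2361 of 54613 probe sets.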
